A study of Mus musculus with 18 samples.

Results

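The genes described here encode the sarcomere, the repeating contractile unit of striated muscle, and its Z-disc and intermediate filament partners. They are 42 genes chosen by symbol for this structure, of which 41 were measured among the 19057 genes of the arrays. Xirp1 had no probe named for it in the platform annotation. Each gene was read from its brightest probe, the one with the highest mean log2 intensity over the 18 arrays. The 41 genes divide by place into 11 thick filament genes, 3 genes of the M-band and titin, 15 thin filament genes and 12 genes of the Z-disc and intermediate filaments. By isoform, 11 belong to fast fibres, 9 to slow fibres and 3 to developing muscle, and 18 were not assigned.

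The study measured mRNA in C2C12 myotubes, the multinucleated muscle cells formed by a mouse myoblast line, on Illumina mouseWG-6 bead arrays. Cultures in medium with 2% horse serum received the synthetic glucocorticoid dexamethasone (Dex) at 1 uM or the same volume of its vehicle ethanol (ETOH in the labels), 0.01% of the medium. The groups were ethanol for 6 h (4 arrays), Dex for 6 h (4 arrays), ethanol for 24 h (5 arrays) and Dex for 24 h (5 arrays). The study's design states triplicates, but samples are numbered up to 4 or 5, and all of them entered the fit. All 4 groups shared the cell line and the serum. Nothing in the labels says that replicates are separate cultures, and the p-values thus cover the variation among these samples alone, possibly technical.

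In a sarcomere, myosin thick filaments pull on actin thin filaments when calcium binds the troponin complex and tropomyosin moves off the myosin sites. Z-discs anchor the thin filaments through alpha-actinin, the M-band links the thick filaments, and titin spans from one to the other. Fast, slow and developmental fibres use different genes for the same subunits. Glucocorticoids bind the glucocorticoid receptor, a transcription factor, and are known to cause muscle atrophy, in which the ubiquitin ligases Trim63 and Fbxo32 rise.

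The cells carried the signature of myotubes. Of 11 measured myotube markers, 10 had a mean above 2 times the array median in all 4 groups, and Dmd lay near the median. Their summed intensity was 117201 to 120371 with ethanol and 114338 to 121158 with Dex at 6 h, and 67903 to 90778 with ethanol and 76493 to 85653 with Dex at 24 h. Within the markers, none was called at 6 h. At 24 h Casq2 (calsequestrin) and Ckm (creatine kinase) rose by 0.48 and 0.30 on the log2 scale, while Myog (myogenin) fell by 0.32. Of all genes, 4.47% rose and 4.42% fell at 24 h. The calls of Ckm and Myog were lost in 10 and 8 of 28 alternatives. Of 10 measured markers of dividing myoblasts, none was called at 6 h. Only Cdk1 was called at 24 h (log2 fold change 0.43), 10% of the list against 8.89% of all genes. Its call was lost when its probes were averaged. Of these 10 markers, 4 had a mean above 2 times the array median with ethanol and 3 with Dex, at each time. Cdk1 and Plk1 were among them, at 550 and 487 with ethanol at 6 h. Pax7 and Myf5, which mark myoblasts, lay near or below the array median. No adipocyte or osteoblast marker had a mean above 2 times the array median in any group. Fibroblast markers were present in part. With ethanol, 6 of 8 had a mean above the array median at each time, and Postn and Thy1 lay below it. At 24 h 4 of 8 fell (Lum, Col1a1, Col3a1 and Dcn), against 4.42% of all genes. Pdgfra rose at both times (of all genes, 2.48% rose at 6 h and 4.47% at 24 h). Its call at 6 h was lost when its probes were averaged. The summed intensity of the 8 markers at 24 h was 13742 to 16020 with ethanol and 11179 to 12705 with Dex, without overlap. Most of it was Dcn, with means of 12516 and 9911, so the sum largely repeats the fall of that gene. The part of fibroblast markers in the results below was not tested. In bulk RNA of this kind, fewer cells of a type and less RNA per cell cannot be told apart.

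Intensities were normalized apparently apart for each time (array medians 99.8 to 100.4 at 6 h and 85.2 to 86.8 at 24 h), so levels are not compared across times, and the comparison of times is of the Dex effects. Within a group, the lowest correlation between arrays over all genes was 0.993 at 6 h and 0.995 at 24 h. A gene is called here at an adjusted p under 0.05 from limma with Benjamini-Hochberg adjustment over all 19057 genes, and fold changes are log2 of Dex over ethanol, with the standard error (SE) of the model. Whether the deposited values had been adjusted by replicate number is not known. If they were, the SD within groups, the SE and the p-values would cover only the spread left after that step. All adjusted p-values below are from that fit, with exceptions named where they occur. These are fits with an array left out, probes averaged or another alternative setting, and tests over all probes.

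Most sarcomere genes did not pass the test with Dex. At 6 h, 4 of 41 (9.76%) were called against 4.46% of all genes: Myot and Tmod4 rose (of all genes, 2.48% rose), and Myl2 and Tpm1 fell (1.98% of all genes). At 24 h, 7 of 41 (17.1%) were called against 8.89% of all genes: Mybpc1, Tmod1, Tcap, Myot and Actc1 rose (4.47% of all genes), and Myh7 and Tpm1 fell (4.42% of all genes). With 1 array left out at a time, the 24 h count fell to 4 without ethanol 24 h replicate 3 or replicate 4 and was otherwise 5 to 9. Only Tpm1 and Myot were called at both times, each in the same direction. The median log2 fold change of the 41 genes was 0.04 at 6 h and 0.01 at 24 h, and that of all genes was 0.00 at both times. The median absolute change was 0.165 at 6 h and 0.0949 at 24 h, against 0.0782 and 0.0825 for all genes. Of the members with a mean log2 above 12, 1 of 23 (4.35%) was called at 6 h and 3 of 23 (13.0%) at 24 h, against 6.11% and 13.6% of the 786 genes that bright. Among the bright members, the share called was thus near the background at both times. In a fit of only the 9528 genes above the median intensity, 882 were called at 6 h and 1581 at 24 h. Of the 40 members among them, 4 and 7 were called, so the member share there was also near the background.

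**Figure D1:**
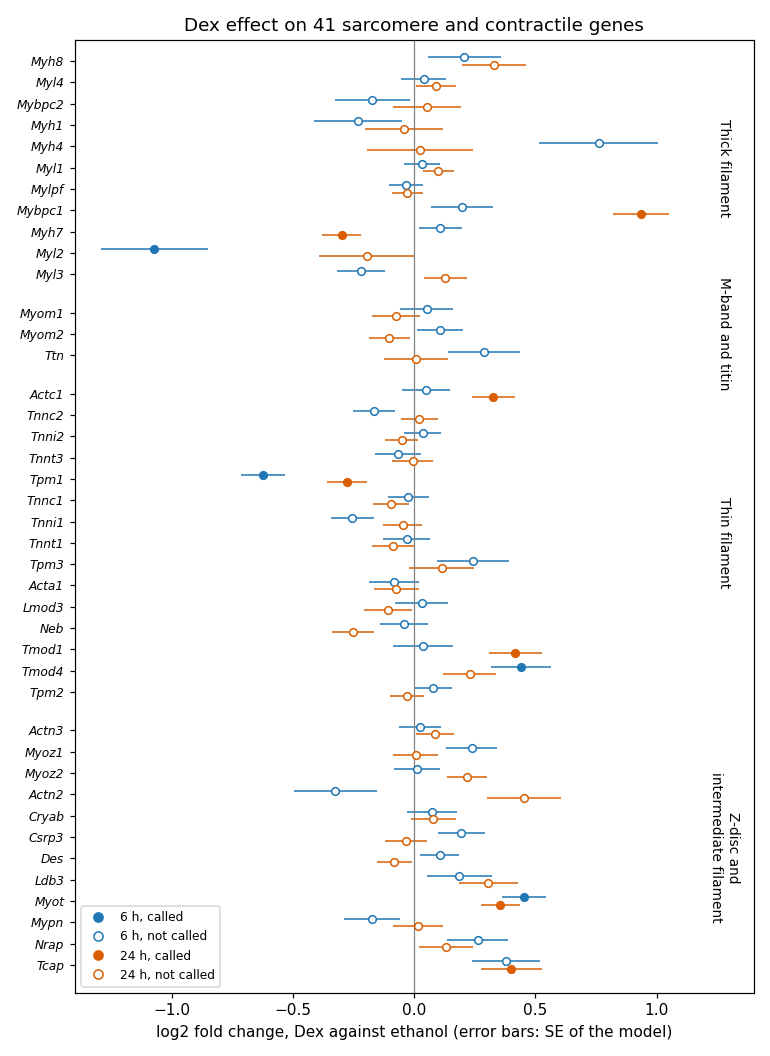
Log2 fold change of Dex against ethanol (horizontal axis) for the 41 measured genes, grouped by place in the sarcomere, at 6 h and 24 h; bars are the SE of the model and filled points are called at an adjusted p under 0.05. Myl2 (-1.07 at 6 h) and Mybpc1 (0.94 at 24 h) lie farthest out among the called genes, and most genes lie near 0.

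Promoters of 4 called genes are shown next, since the Dex effects to be described concern these genes, 3 that rose and 1 that fell at 24 h; they were chosen after the values were seen. Each window is the 250 bases before the start site in RefSeq (assembly GRCm38.p6), read on the gene's strand; capitals mark the motifs searched on both strands. The motifs were the E-box CANNTG of MyoD-type factors, the CArG box of serum response factor, the MEF2 site, the MCAT element CATTCC, which reads GGAATG on the other strand, and the AGAACA half-site of the glucocorticoid receptor.
Actc1, chr2:114052876-114053125, minus strand: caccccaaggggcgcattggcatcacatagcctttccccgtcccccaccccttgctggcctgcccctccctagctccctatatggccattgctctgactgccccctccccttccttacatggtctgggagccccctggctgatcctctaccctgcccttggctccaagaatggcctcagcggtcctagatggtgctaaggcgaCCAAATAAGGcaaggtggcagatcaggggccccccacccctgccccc
Tmod1, chr4:46038972-46039221, plus strand: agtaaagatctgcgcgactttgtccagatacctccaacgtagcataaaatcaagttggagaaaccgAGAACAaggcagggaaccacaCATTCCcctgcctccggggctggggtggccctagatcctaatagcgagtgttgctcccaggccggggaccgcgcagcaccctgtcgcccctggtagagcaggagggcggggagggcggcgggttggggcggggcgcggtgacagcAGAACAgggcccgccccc
Mybpc1, chr10:88605153-88605402, minus strand: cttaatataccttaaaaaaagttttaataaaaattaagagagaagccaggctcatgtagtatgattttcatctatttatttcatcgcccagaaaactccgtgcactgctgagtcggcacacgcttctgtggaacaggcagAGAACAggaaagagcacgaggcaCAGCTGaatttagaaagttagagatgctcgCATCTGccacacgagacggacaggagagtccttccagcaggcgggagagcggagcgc
Tpm1, chr9:67049214-67049463, minus strand: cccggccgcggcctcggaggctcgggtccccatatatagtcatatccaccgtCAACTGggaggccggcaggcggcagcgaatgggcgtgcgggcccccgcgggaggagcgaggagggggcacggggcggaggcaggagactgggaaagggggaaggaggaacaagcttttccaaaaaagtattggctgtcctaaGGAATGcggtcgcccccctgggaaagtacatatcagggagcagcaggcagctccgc

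Actc1 holds a CArG box, CCAAATAAGG, from -47 to -38 relative to the start site. Tmod1 holds AGAACA at -184 to -179 and at -18 to -13 and CATTCC at -163 to -158. Mybpc1 holds the E-boxes CAGCTG (-87 to -82) and CATCTG (-57 to -52) and AGAACA at -110 to -105, and Tpm1 holds the E-box CAACTG (-198 to -193) and an MCAT element at -56 to -51. None of these matches overlap. Windows were found for 31 of the 42 genes, 37 windows in all. A CArG box occurred in 7 of 37 windows (18.9%), of Acta1, Actc1, Ldb3, Myh4, Myl3 and Myom1, against 1.47% of 32851 windows, and an E-box in 31 of 37 (83.8%) against 66.2%. The MEF2 site occurred in 13.5% against 1.69%, CATTCC in 29.7% against 12.6% and AGAACA in 29.7% against 16.1%. The full palindromic glucocorticoid response element occurred in no member window and in 3 of 32851 overall. These matches describe the letters of the windows and say nothing of binding.

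The thick filament gene that fell most was Myl2, the regulatory light chain of slow and ventricular myosin. At 6 h its intensity was 3239.8, 2944, 5623 and 6577 on the ethanol arrays and 2974, 1695, 2207 and 1624 on the Dex arrays. Replicates 3 and 4 were the high ethanol arrays, and the groups overlapped, since the highest Dex array exceeded the lowest ethanol array. The mean went from 4596 ± 1784 to 2125 ± 622 (SD, n = 4), a log2 change of -1.07 (SE 0.22, adjusted p = 0.00426, limma) and 2.10-fold lower. Leaving out any 1 array kept the call, and over all alternatives the change lay between -1.26 and -0.87. At 24 h the change was -0.19 and was not called, with ethanol arrays at 867, 917, 968, 668 and 1203 and Dex arrays at 845, 718, 775, 978 and 686. The difference between the effects was 0.88 (SE 0.30) and did not pass (adjusted p = 0.169, limma).

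Mybpc1, slow myosin-binding protein C, which binds myosin and tunes crossbridge cycling, rose at 24 h. Its ethanol arrays lay at 116, 123, 143, 120.1 and 148 and its Dex arrays at 287, 238, 241, 284 and 198. All 5 Dex arrays exceeded all 5 ethanol arrays. The mean went from 129.9 ± 14.5 to 249.5 ± 37 (SD, n = 5), a log2 change of 0.94 (SE 0.12, adjusted p = 5.45e-06, limma) or 1.91-fold. A second probe rose by 0.75 (adjusted p = 0.00147 over all probes, limma), and 2 dim probes near the array median did not pass (log2 0.09 and -0.04). Averaging the 4 probes lowered the change to 0.43, still called (adjusted p = 0.00137, limma).

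At 6 h Mybpc1 was 388, 535, 358 and 476 with ethanol and 560.3, 475, 512 and 448 with Dex. These groups overlapped, and the change of 0.20 was not called. The effect at 24 h exceeded that at 6 h by 0.74 (SE 0.17, adjusted p = 0.0358, limma), the only call among the 41 genes for that difference (2.44%, against 1.22% of all genes). That call was lost when any of 6 arrays was left out (ethanol 6 h replicates 2 and 4, Dex 6 h replicates 2 and 3, ethanol 24 h replicate 2 and Dex 24 h replicate 4), with adjusted p up to 0.0562 (limma). Averaging the probes lowered the difference to 0.29, not called (adjusted p = 0.265, limma).

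Myh7, the slow (beta) myosin heavy chain, fell at 24 h from a dim signal. The ethanol arrays were 149, 149, 158, 151 and 155 and the Dex arrays 124, 125, 123, 134 and 113. Every Dex array was below every ethanol array. The means were 152 ± 3.98 and 124 ± 7.66 (SD, n = 5), a log2 change of -0.30 (SE 0.08, adjusted p = 0.0179, limma). The other 2 probes of Myh7 did not pass, while averaging its 3 probes left -0.14 (adjusted p = 0.201, limma). The difference between its effects was -0.41 (adjusted p = 0.0986, limma) and was called only without Dex 6 h replicate 2 among the single arrays left out (-0.48, adjusted p = 0.0380, limma). At 6 h Myh7 was 122 ± 10.1 with ethanol and 132 ± 15 with Dex (SD, n = 4) and was not called.

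**Figure D2:**
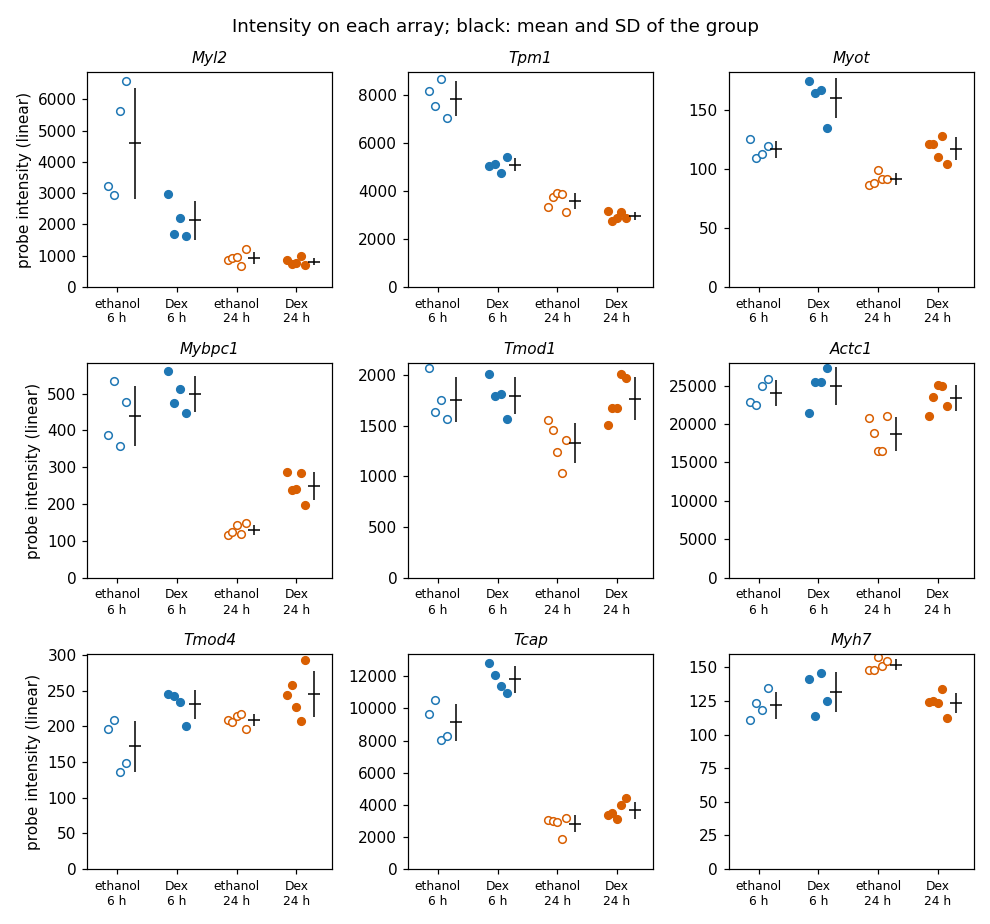
Probe intensity on each array (linear vertical axis from 0) for the called genes in the 4 groups, with the mean and SD of each group in black. Mybpc1 Dex arrays at 24 h (198 to 287) stand above all ethanol arrays at that time (116 to 148), and Tpm1 Dex arrays at 6 h (4732 to 5395) below the ethanol arrays (7012 to 8642).

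Of the other 8 thick filament genes, none was called at either time. Their log2 changes ran from -0.23 (Myh1, a fast heavy chain) to 0.76 (Myh4, the fast IIb heavy chain) at 6 h, and from -0.04 (Myh1) to 0.33 (Myh8, the perinatal heavy chain) at 24 h. Myh4 at 6 h had ethanol arrays at 2234, 1703, 1246 and 792 and Dex arrays at 2672, 2772, 1962 and 2133. Ethanol replicate 1 overlapped the Dex arrays, and the change of 0.76 (SE 0.25) did not pass (adjusted p = 0.0876, limma). Without ethanol replicate 1 it was 0.99 (adjusted p = 0.0116, limma), and without ethanol 24 h replicate 5, which changes only the estimate of spread, the adjusted p was 0.0497 (limma). Myh8 at 24 h was 0.45 without ethanol 24 h replicate 5 (adjusted p = 0.0176, limma). The light chains Myl1, Myl4 and Mylpf changed by at most 0.10 in size at either time.

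In the thin filament, Tpm1, alpha-tropomyosin, was the fall called at both times. At 6 h its ethanol arrays were 8167, 7523, 8642 and 7012 and its Dex arrays 5051, 5132, 4732 and 5395. Every Dex array lay below every ethanol array. The mean went from 7836 ± 716 to 5078 ± 273 (SD, n = 4), a log2 change of -0.62 (SE 0.09, adjusted p = 8.1e-05, limma). A second probe of Tpm1 fell by 0.63 (adjusted p = 0.000195 over all probes, limma), and the third, a dim probe, changed by -0.09, not called.

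At 24 h Tpm1 had ethanol arrays at 3321, 3735, 3887, 3849.9 and 3129.7 and Dex arrays at 3159, 2740.3, 2862, 3128 and 2867. The ranges overlapped, with Dex replicate 1 just above the lowest ethanol array. The change was -0.28 (SE 0.08, adjusted p = 0.0330, limma), from 3585 ± 339 to 2951 ± 183 (SD, n = 5). It was not called when any of 6 arrays of the 24 h groups was left out (ethanol replicates 2, 3 and 4, Dex replicates 2, 3 and 5), with adjusted p up to 0.0683 (limma). The second probe changed by -0.25 (adjusted p = 0.0892 over all probes, limma) and the third by 0.04. Averaging the 3 probes left -0.16, not called (adjusted p = 0.121, limma). The effects at the 2 times differed by 0.35 (adjusted p = 0.188, limma) and this did not pass.

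Tmod1 and Tmod4 encode tropomodulins, which cap the pointed ends of thin filaments. Tmod1 at 24 h had ethanol arrays at 1550.4, 1457, 1242, 1037 and 1357 and Dex arrays at 1511, 1673, 1675, 2004 and 1969. The highest ethanol array exceeded the lowest Dex array. The mean rose from 1328 ± 199 to 1766 ± 212 (SD, n = 5), 0.42 on the log2 scale (SE 0.11, adjusted p = 0.0175, limma), a call kept in 28 of 28 alternatives. At 6 h, with ethanol arrays at 2064, 1637, 1754 and 1562 and Dex arrays at 2014, 1788, 1813 and 1566, Tmod1 changed by 0.04 and was not called.

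Tmod4 rose at 6 h, with ethanol arrays at 196, 209.6, 136 and 148 and Dex arrays at 246, 243, 235 and 201. The highest ethanol array exceeded the lowest Dex array. The change was 0.44 (SE 0.12, adjusted p = 0.0399, limma), from 172 ± 35.9 to 231 ± 20.7 (SD, n = 4). At 24 h Tmod4 changed by 0.23 and was not called, with ethanol arrays at 208, 206, 215, 218 and 196 and Dex arrays at 244, 258, 227, 208 and 294. At 6 h the other probes of Tmod4 changed by 0.10 and 0.07, while averaging its 3 probes left 0.21 (adjusted p = 0.232, limma). The call was lost without ethanol 6 h replicate 3 or 4 or Dex 6 h replicate 1, 2 or 3 (adjusted p up to 0.140, limma).

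Actc1, cardiac alpha-actin, which developing skeletal muscle also uses, rose at 24 h. Its ethanol arrays were 20823, 18807, 16430.4, 16457 and 21021 and its Dex arrays 21027, 23473, 25024, 25003 and 22379. All Dex arrays exceeded all ethanol arrays. The mean went from 18708 ± 2241 to 23381 ± 1724 (SD, n = 5), a log2 change of 0.33 (SE 0.09, adjusted p = 0.0224, limma). A second probe rose by 0.46 (adjusted p = 0.00591 over all probes, limma). The call was lost without ethanol replicate 3 or 4 (adjusted p = 0.0536 and 0.0538, limma). At 6 h ethanol arrays were 22841, 22480.4, 24937 and 25883 and Dex arrays 21464, 25526, 25405 and 27263. These overlapped, and the change of 0.05 was not called.

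The other 11 thin filament genes were not called at either time. The troponins, which switch the filament with calcium, changed by -0.26 (Tnni1, 6 h) to 0.04 (Tnni2, 6 h) over the 6 genes and both times. Acta1, skeletal alpha-actin, changed by -0.08 and -0.07. Tpm2 and Tpm3 (beta- and slow tropomyosin) changed by 0.08 and 0.24 at 6 h and by -0.03 and 0.11 at 24 h. Of the other 5 probes of Tpm3, 4 had negative changes at 6 h (-0.20 to -0.42), none called, and averaging its 6 probes left -0.09. Neb, nebulin, the thin filament ruler, had a dim signal and changed by -0.25 at 24 h (adjusted p = 0.0788, limma). Without ethanol or Dex 24 h replicate 1 it was -0.31 or -0.30 and called (adjusted p = 0.0236 and 0.0275, limma). Of the 15 thin filament genes, 10 had a negative change at 24 h, 1 of them called. Among all 19057 genes, 9533 had a negative change at 24 h.

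At the Z-disc, Myot, myotilin, an alpha-actinin and filamin partner, rose at both times from a signal near the array median. At 6 h its ethanol arrays were 126, 109, 113 and 119 and its Dex arrays 174, 164, 167 and 135. Dex arrays all exceeded ethanol arrays, and the change was 0.45 (SE 0.09, adjusted p = 0.00329, limma). At 24 h ethanol arrays lay at 86.4, 87.5, 99.1, 91.1 and 91.4 and Dex arrays at 121, 121, 109.9, 128 and 104. These groups did not overlap either, and the change was 0.36 (SE 0.08, adjusted p = 0.00643, limma). The other probe of Myot changed by -0.17 and -0.15, not called, and the mean of the 2 probes was not called (0.14 and 0.10). The rise thus rests on 1 probe.

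Tcap, telethonin, the titin cap at the Z-disc, rose at 24 h. Its ethanol arrays were 3068, 2973, 2893, 1878 and 3199 and its Dex arrays 3331, 3479.8, 3111, 3987 and 4417. Ethanol replicate 4 was the low array and the ranges overlapped. The mean went from 2802 ± 529 to 3665 ± 529.8 (SD, n = 5), 0.40 on the log2 scale (SE 0.13, adjusted p = 0.0480, limma). Without ethanol replicate 4 the change was 0.26 (adjusted p = 0.112, limma), and leaving out ethanol replicate 2 or 3 or Dex replicate 2, 4 or 5 also ended the call (adjusted p up to 0.119, limma). At 6 h every Dex array (12839, 12076, 11414 and 10944) exceeded every ethanol array (9684, 10509.6, 8061 and 8277), and the change of 0.38 did not pass (adjusted p = 0.152, limma). It was called without ethanol 24 h replicate 4 (adjusted p = 0.0367, limma).

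Actn2, alpha-actinin that crosslinks thin filaments in the Z-disc, had a change of -0.33 at 6 h and 0.45 at 24 h, neither called (adjusted p = 0.382 and 0.0698, limma). At 6 h its ethanol arrays were 5385, 5176, 6957 and 8600.2 and its Dex arrays 5220.2, 4609.7, 5829 and 4824. The Dex range overlapped the lower ethanol arrays, replicates 1 and 2. At 24 h its ethanol arrays were 1561, 1621, 1484, 1019 and 2092 and its Dex arrays 2103, 1777, 2091, 2551 and 1925. The ranges overlapped through ethanol replicate 5. Without that array the change was 0.57 (adjusted p = 0.0173, limma), and without ethanol 6 h replicate 4 it was also called (adjusted p = 0.0387, limma). The 24 h change was called too with no covariates, a replicate block, each time fitted alone or array weights (adjusted p = 0.0303 to 0.0497, limma). A dimmer probe was called (0.56, adjusted p = 0.0396 over all probes, limma). The effects differed by 0.78 (SE 0.23, adjusted p = 0.104, limma), which did not pass, and without ethanol 24 h replicate 5 by 0.89 (adjusted p = 0.0393, limma). With no covariates or a replicate block, that difference was also called (adjusted p = 0.0403 and 0.0390, limma).

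The other 9 Z-disc and intermediate filament genes were not called: at 6 h from -0.18 (Mypn) to 0.26 (Nrap), at 24 h from -0.08 (Des) to 0.31 (Ldb3). Of the 6 probes of Ldb3, 1 dimmer probe was called at 24 h (0.57) and a different probe at 6 h (0.31), neither at the other time. At 24 h its probes ran from -0.10 to 0.57. Its brightest probe was called at 24 h with a replicate block, each time fitted alone or array weights (adjusted p = 0.0316, 0.0466 and 0.0408, limma). Of the 3 probes of Nrap, 1 dimmer probe was called at 24 h (0.62), and the dimmest changed by -0.05. Of the 12 genes here, 10 had a positive change at each time, with a median of 0.15 at 6 h and 0.11 at 24 h. Only 1 of the 12 was called at 6 h and 2 at 24 h. Among all 19057 genes, 9749 had a positive change at 6 h and 9524 at 24 h. The M-band genes Myom1 and Myom2 and titin (Ttn) were not called at either time. Of the 12 probes of Ttn, 1 dimmer probe was called at 6 h (0.71, adjusted p = 0.0271 over all probes, limma). Its other probes ran from -0.24 to 0.29 at 6 h, none called.

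By isoform, the fast genes had medians of -0.03 at 6 h and 0.01 at 24 h, and the slow genes -0.02 and -0.05. The 11 fast genes held 1 fall (Tpm1) at each time (9.09%, against 4.46% of all genes at 6 h and 8.89% at 24 h). The 9 slow genes held the fall of Myl2 at 6 h (11.1%) and the rise of Mybpc1 and the fall of Myh7 at 24 h (22.2%). All 3 developmental genes (Myh8, Myl4 and Actc1) had positive changes at 24 h, 0.33, 0.09 and 0.33, of which Actc1 was called. Among all 19057 genes, 9524 had a positive change at 24 h. The difference between fast and slow genes was not tested. Whether a probe also reads a close paralog was not tested either.

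**Figure D3:**
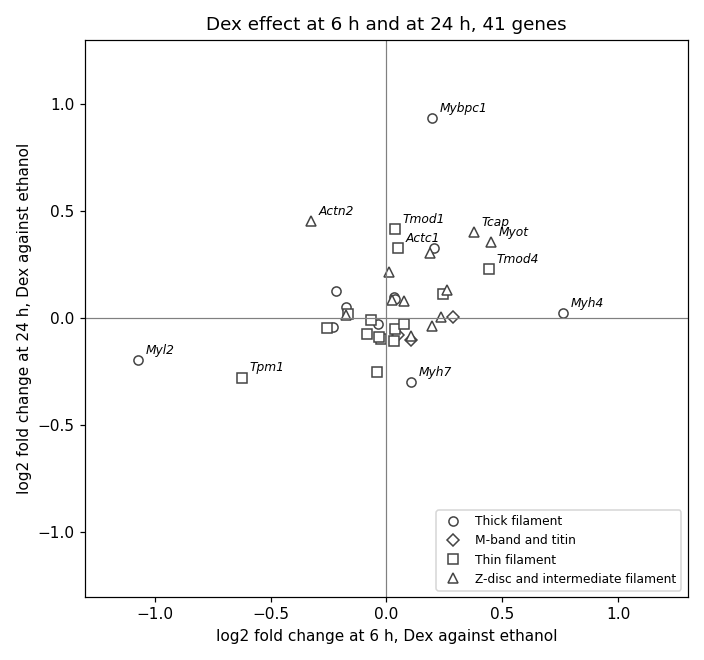
Log2 fold change at 24 h (vertical axis) against 6 h (horizontal axis) for the 41 genes, with symbols for place in the sarcomere. Myl2 (-1.07 at 6 h, -0.19 at 24 h), Actn2 (-0.33, 0.45), Mybpc1 (0.20, 0.94) and Myh4 (0.76, 0.02) lie farthest from the diagonal.

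Across the 41 genes the 6 h and 24 h changes had a Pearson correlation of 0.343 and a Spearman correlation of 0.362, with 28 of 41 of the same sign, over separate arrays that share a cell line and processing. Over all genes these were 0.561, 0.237 and 56.2% of the same sign, against 68.3% of the 41. Genes are not independent replicates. Groups did not overlap for 8 of 41 genes at 6 h, 6 higher with Dex and 2 lower, against 10.9% of all genes (5.59% higher and 5.31% lower). At 24 h this held for 5 of 41, 4 higher and 1 lower, against 16.3% (8.42% higher and 7.86% lower).

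Mylpf, the fast regulatory light chain, had the highest mean log2 signal of the 41 genes and Neb the lowest. Mylpf at 6 h was 37865, 38164, 38331 and 35799 with ethanol and 35603, 36024, 36416 and 38540.3 with Dex, and at 24 h 27504, 27339, 28945, 26347 and 28813 with ethanol and 27394, 27779, 25971, 27074 and 27980.4 with Dex. Neb at 6 h was 97.7, 87.6, 87 and 82.8 with ethanol and 82.1, 85.2, 89.8 and 87.4 with Dex, and at 24 h 91.2, 96.4, 112, 115 and 123 with ethanol and 104, 90, 92, 81.5 and 83.4 with Dex. The groups of both genes overlapped at both times.

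Signal strength limits several values. At 6 h 17 of the 41 genes had a mean above 10000, and 11 lay within 2-fold of the array maximum (Myl1, Myl4, Mylpf, Acta1, Actc1, Tnnc1, Tnnc2, Tnni2, Tnnt1, Tpm2 and Des). Whether saturation limited their rises was not tested. Their changes ran from -0.17 to 0.11 at 6 h and from -0.09 to 0.33 at 24 h, and 1 was called, Actc1 at 24 h. At 6 h 5 genes and at 24 h 7 had means under 200, so that background left in a value could lower a change. Of these, Myot was called at 6 h and at 24 h, and Mybpc1 and Myh7 at 24 h. For genes not called, 36 of 37 at 6 h and 34 of 34 at 24 h had a 95% interval within ±1 on the log2 scale, and 29 and 30 within ±0.5. The exception was Myh4 at 6 h (0.25 to 1.27).

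**Figure D4:**
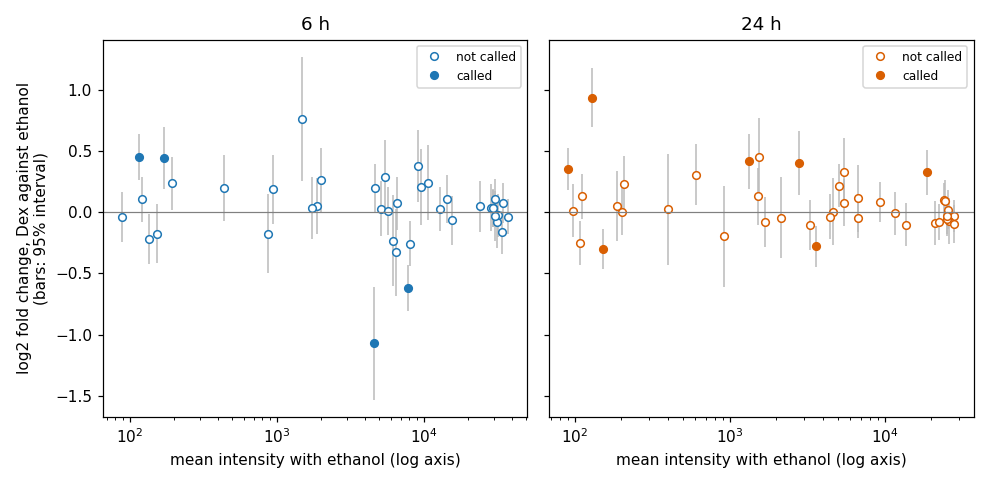
Log2 fold change with its 95% interval (vertical axis) against the mean ethanol intensity (horizontal log axis) for the 41 genes at 6 h and 24 h; filled points are called. The brightest genes cluster near 0, with Actc1 at 24 h (0.33) the exception.

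Neighbouring gene lists were measured in the same fit, in which 4.46% of all genes were called at 6 h and 8.89% at 24 h. Of 24 further sarcomere and Z-disc genes, 2 rose and 2 fell at 6 h (Mylk2 0.57, the myosin light chain kinase of skeletal muscle, and Tmod3 0.29; Pdlim7 -0.42 and Myoz3 -0.27), and 1 rose and 2 fell at 24 h (Cfl2 0.30, muscle cofilin; Synpo2l -0.41 and Ankrd1 -0.37). These were 16.7% and 12.5% of the list. Of 17 myofibril assembly and turnover genes, 3 rose and 1 fell at each time (23.5%). Trim63 rose by 0.93 and 0.47, Hspb7 by 0.72 and 0.77 and Fbxo32 by 0.60 and 1.14, while Fhod3 fell by 0.42 at 6 h and Cavin4 by 0.35 at 24 h. Of 20 non-muscle and smooth muscle contractile genes, 1 rose and 2 fell at 6 h (15%) and 3 rose and 1 fell at 24 h (20%). Actn1, the non-muscle alpha-actinin, rose by 0.47 and 0.67, and at 24 h Actg2 rose by 0.89 and Myl9 by 0.58. At 6 h Cald1 fell by 0.57 and Tagln2 by 0.38, and Myl12a fell by 0.29 at 24 h. Mylk2, Cfl2, Fhod3 and Cald1 were not called when the probes of a gene were averaged. The calls of Tagln2 and Myoz3 were lost in 8 of 28 and 4 of 27 alternatives. The effects at the 2 times differed for Actg2 (1.17 higher at 24 h) and Myl9 (0.83 higher), and for Ankrd1 (-0.52, lost in 6 of 27 alternatives) and Tmod3 (-0.47). At 6 h the median change was 0.05 for the further sarcomere genes, 0.14 for the turnover genes and -0.09 for the non-muscle genes. At 24 h these medians were -0.00, 0.07 and -0.02.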

How the data were processed

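Total RNA of 18 C2C12 myotube samples was hybridized to bead arrays. The deposited values are linear probe intensities that the authors pre-processed with lumi, per the submitters' processing notes; for its version, background correction and normalization, the sources used here give nothing. Values were log2-transformed here, adding a pseudocount of 0. Of 45281 probes, 34885 had 1 gene symbol, and the brightest probe by mean log2 represented each of 19057 genes. lmFit and eBayes of limma 3.58.1 (R 4.3.3) fitted 1 mean per group.

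Deviations from the group means used fewer directions than the arrays allow: at 6 h 1 of 6 held 2.08e-05% of the spread, and at 24 h 3 of 8 held 0.000293%, 0.000107% and 2.42e-05%. These directions entered as covariates, which lowered the residual degrees of freedom from 14 to 10 and left fold changes as they were. P-values were adjusted by Benjamini-Hochberg over 19057 genes and called under 0.05. The replicate numbers were not used as pairs in the main fit. Same-numbered samples correlated in their deviations by -0.0797 to 0.256 at 6 h and -0.928 to -0.190 at 24 h. These correlations cannot show whether the samples were pairs, since an adjustment by replicate number would itself change them. In the unused directions, same-numbered arrays mostly loaded alike. In the last at 24 h, replicates 1 and 5 did not, and replicate 4 had small loadings of opposite sign (-0.0267 with ethanol and 0.00219 with Dex). Whether the deposited values had been adjusted by replicate number is not known. Members, lists and tests were chosen with earlier results of these data known. Named genes are the members called, the brightest and the dimmest member, and of each list up to 3 called genes per time and direction; other members are given by range, and further ones were named after their values were seen. Alternatives changed the covariates, block, probe summary, filter, normalization, pseudocount (50), background correction, arrays in the fit, weights and single arrays. Detection values were not used here.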

Additional observations from a re-analysis of the deposited data

Results flagged for a closer look

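The Dex effect on Mybpc1 was larger at 24 h than at 6 h by 0.739 on the log2 scale, the difference tested in the limma fit (adjusted p = 0.0358), and this was lost in 9 of 27 alternatives. For Tcap, ethanol 24 h replicate 4 (1878 against 2893 to 3199 in the other 4) stood apart, its gap taking 0.811 of the group's range on the log2 scale. This was 1 of 36 groups of arrays examined over 9 genes, and chance flags about 1 in 20 groups. Neither difference has a cause tested here.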

How the results depend on the processing

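No alternative reversed the direction of a called sarcomere gene or of a called gene of the other lists. The direction of other genes was not checked. With no covariates (4 group means only), 1726 genes were called at 6 h, 3142 at 24 h and 942 for the difference of the effects, against 850, 1694 and 232, and 3 sarcomere genes for that difference against 1. With the replicate block, 532 genes and 2 sarcomere genes were called for the difference (1220 and 2255 genes at 6 h and 24 h, 6 and 9 sarcomere genes); whether the numbers tie the samples is not settled by these values, and 3 of 8 samples at 6 h and 0 of 10 at 24 h correlated best with their own number. With the mean of the probes of a gene, 2 of 41 sarcomere genes were called at 6 h, 4 at 24 h and 0 for the difference. Of all 19057 genes, 641, 1452 and 115 were called. The 4 sarcomere genes at 24 h all rose, and the falls of Myh7 and Tpm1 were not called. Of these 4, 3 were called in the main fit, and Nrap (0.23) was not. With 50 added before log2, and without both 24 h arrays numbered 1, 0 sarcomere genes were called for the difference, against 207 and 293 of all genes. Leaving out 1 array in turn gave 704 to 1049 genes at 6 h, 1409 to 2105 at 24 h and 192 to 372 for the difference, and 3 to 5, 4 to 9 and 0 to 2 sarcomere genes. Calls of Myl2 and Tpm1 at 6 h and of Mybpc1 and Tmod1 at 24 h were kept in 28 of 28 alternatives, that of Tcap in 18 and those of Tmod4 at 6 h and Tpm1 at 24 h in 20. The cause of these changes was not tested, apart from the residual degrees of freedom, 10 against 14 with no covariates.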
